A study of Homo sapiens with 12 samples.

Results

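The comparison concerned how the RNA response to the TEAD inhibitor SWTX-143 differed between 2 human cancer cell lines, H226 and ACHN. For every gene it took the log2 change from DMSO to SWTX-143 in H226 minus the same change in ACHN. Members were the genes that averaged 5 CPM or more (CPM are counts per 1000000 of the library total) over the 6 libraries of each line, 10039 of the 27064 symbols in the deposited tables. Members were thus chosen by their mean level alone, which is given only as a description, and the difference in response played no part in the choice. KIF27 (6.26 CPM in H226, 5.003 in ACHN) and ELMO3 (22.2 and 5.005) lay just inside the minimum, and SDHAF4 (4.996 and 5.41) and DLX1 (4.998 and 14.8) just outside. A further 881 symbols reached it in H226 alone, 1204 in ACHN alone and 14940 in neither.

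H226 is a mesothelioma line and ACHN a kidney cancer line, and the submitters call both deficient in NF2, so every group carries that background. Each line received 100 nM SWTX-143, an irreversible inhibitor, or DMSO overnight, with 3 libraries in each of the 4 groups. Each tumour type is represented by 1 line, so line and tissue cannot be told apart. Nothing in the labels tells if a group's 3 libraries were separate cultures, and the p-values therefore measure the spread among these libraries alone, possibly a technical one. The 2 lines share no control libraries, but each line was deposited in a table of its own, so line cannot be told apart from any difference in how the tables were made.

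Total counts ran from 9690980 to 11262663 over the 12 libraries. All 15 mesothelial markers were higher in H226, with a summed level of 4867 to 4983 CPM under DMSO against 236 to 239 CPM in ACHN. Of 14 kidney markers, 9 were higher in ACHN (841 to 873 CPM against 179 to 181 CPM in H226) and EMX2 had no count in any library. Of 8 leukocyte markers, PTPRC and TYROBP had no count in any library, and the list summed to 9.995 to 17.1 CPM in H226 and 44.9 to 69.01 CPM in ACHN. Of 7 endothelial markers 6 were higher in H226 under DMSO (209 to 220 CPM against 0.18 to 0.77 CPM in ACHN). That sum came from other genes than CDH5 (0.059 CPM) and PECAM1 (0.13 CPM), which had 2 and 4 counts in H226 under DMSO. Of 8 fibroblast markers 7 were higher in H226 under DMSO (1126 to 1138 CPM against 8.27 to 10.6 CPM in ACHN). NF2 had no count under DMSO in H226, whereas ACHN held 117 ± 0.170 CPM (SD, n = 3). The difference varied with transcript length. Its median ran from -0.060 in genes of up to 1500 bases to 0.059 in the 211 genes over 12000 bases. Without the replicate 3 library of SWTX-143-treated H226 it ran from 0.0015 to 0.025. No other library was left out in the comparison by length. Over all members the median was -0.031, and it was 0.0023 to 0.018 without any 1 H226 library.

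In the Hippo pathway a chain of kinases, switched on by the NF2 product merlin among others, keeps the coactivators YAP and TAZ out of the nucleus. When the chain is off, YAP and TAZ bind TEAD factors on DNA and drive genes of growth, adhesion and matrix, among them the secreted CCN proteins CTGF and CYR61. TEAD inhibitors block that output. E2F factors, which are held back by the retinoblastoma protein until cells commit to S phase, drive the genes of DNA replication.

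Promoters are printed as examples for CTGF and ANKRD1, YAP/TEAD targets that fell in both lines, and for EDN2, which fell in ACHN. EDN2 was not on the list of targets. Those of UHRF1, MCM3 and PCNA, replication genes that fell in H226, are printed too. Each is the run of 250 bases before the RefSeq start site in GRCh38.p14, 5′ to 3′ on the gene's strand. Capitals mark matches to the TEAD motif (GGAATG or CATTCC), the AP-1 motif (TGANTCA) or the E2F motif (GGCGGGAA or TTCCCGCC), searched on both strands. CTGF lay at chr6:131951373-131951622, minus strand, and ANKRD1 at chr10:90921088-90921337, minus strand. EDN2 lay at chr1:41484684-41484933, minus strand. UHRF1 lay at chr19:4909251-4909500, plus strand, MCM3 at chr6:52284743-52284992, minus strand and PCNA at chr20:5126623-5126872, minus strand.
CTGF: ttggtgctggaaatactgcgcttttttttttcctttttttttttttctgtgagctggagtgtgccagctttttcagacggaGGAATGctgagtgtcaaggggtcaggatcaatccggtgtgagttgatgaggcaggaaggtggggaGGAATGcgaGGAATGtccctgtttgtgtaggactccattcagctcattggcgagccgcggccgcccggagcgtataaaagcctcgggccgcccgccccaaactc
ANKRD1: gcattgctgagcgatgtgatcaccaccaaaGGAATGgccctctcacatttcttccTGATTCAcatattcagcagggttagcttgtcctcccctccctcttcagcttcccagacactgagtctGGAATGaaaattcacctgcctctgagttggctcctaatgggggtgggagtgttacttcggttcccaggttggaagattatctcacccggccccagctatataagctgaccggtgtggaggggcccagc
EDN2: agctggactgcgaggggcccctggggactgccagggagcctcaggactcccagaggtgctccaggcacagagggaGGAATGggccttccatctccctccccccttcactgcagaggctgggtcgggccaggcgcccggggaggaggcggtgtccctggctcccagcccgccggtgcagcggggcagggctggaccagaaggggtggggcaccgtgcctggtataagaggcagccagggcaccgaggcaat
UHRF1: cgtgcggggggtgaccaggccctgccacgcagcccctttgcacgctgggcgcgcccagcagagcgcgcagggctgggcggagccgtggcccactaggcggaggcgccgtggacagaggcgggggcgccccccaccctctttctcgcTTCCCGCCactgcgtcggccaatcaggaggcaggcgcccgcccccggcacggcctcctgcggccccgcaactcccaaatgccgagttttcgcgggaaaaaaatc
MCM3: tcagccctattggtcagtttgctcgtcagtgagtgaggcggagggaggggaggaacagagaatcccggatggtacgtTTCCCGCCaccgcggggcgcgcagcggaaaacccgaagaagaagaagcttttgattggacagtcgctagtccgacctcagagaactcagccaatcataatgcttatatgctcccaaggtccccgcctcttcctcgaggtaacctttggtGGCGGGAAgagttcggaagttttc
PCNA: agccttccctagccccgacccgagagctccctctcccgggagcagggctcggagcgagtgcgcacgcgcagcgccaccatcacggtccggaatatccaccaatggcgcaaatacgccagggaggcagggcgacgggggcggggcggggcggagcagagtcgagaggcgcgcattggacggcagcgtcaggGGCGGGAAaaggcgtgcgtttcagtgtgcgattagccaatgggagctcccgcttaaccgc
The TEAD motif stood in 3836 of 27305 RefSeq windows of 300 bases (250 before to 50 after the start site), in 10.5% of the 8252 members with a window, and in 6 of the 14 YAP/TEAD targets with one (42.9%). The E2F motif stood in 3.18% of all windows, in 5.74% of members, and in 12 of 39 DNA replication genes with a window (30.8%). Among members with a called difference, the E2F motif was in 8.77% of windows of those with a lower response in H226 and in 3.91% of those with a higher one. A match is a description of letters and not a bound site. Each printed promoter holds a match. The windows of the replication genes DTL, CDC45 and CDC6 and of the targets AMOTL2, AXL and CCDC80 held none.

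How many genes responded differently? By edgeR's quasi-likelihood test with Benjamini-Hochberg adjustment over 14664 genes and a limit of 0.05, the difference was called in 2068 members (20.6%), beside 15.6% of all tested genes. The H226 response was the lower one in 1347 members (13.4%, background 9.70%) and the higher one in 721 (7.18%, background 5.89%). That split depended on the scaling: it was 1109 to 861 with DESeq2's size factors, 1195 to 813 with library size alone, 981 to 991 with upper-quartile factors and 1050 to 1062 when members were scaled alone. It was also 910 to 989 without the replicate 3 library of treated H226. A difference of at least 2-fold was called in 42 members (0.418%), a lower share than the 1.13% over all tested genes.

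H226 responded more widely. SWTX-143 changed 4463 members in H226 (44.5%, background 37.8%) and 1818 in ACHN (18.1%, background 15.2%). The precision was similar, with a median SE of 0.068 and 0.066 log2. The SD of the log2 change over members was 0.29 in H226 and 0.18 in ACHN, and the change was the larger one in H226 in 6849 members. Across members the 2 changes had a Pearson r of 0.51 and a Spearman rho of 0.49, a description over genes, which are not independent replicates. Of 1247 members called in both lines, 1137 moved the same way (583 down, 554 up) and 110 opposite ways.

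**Figure D1:**
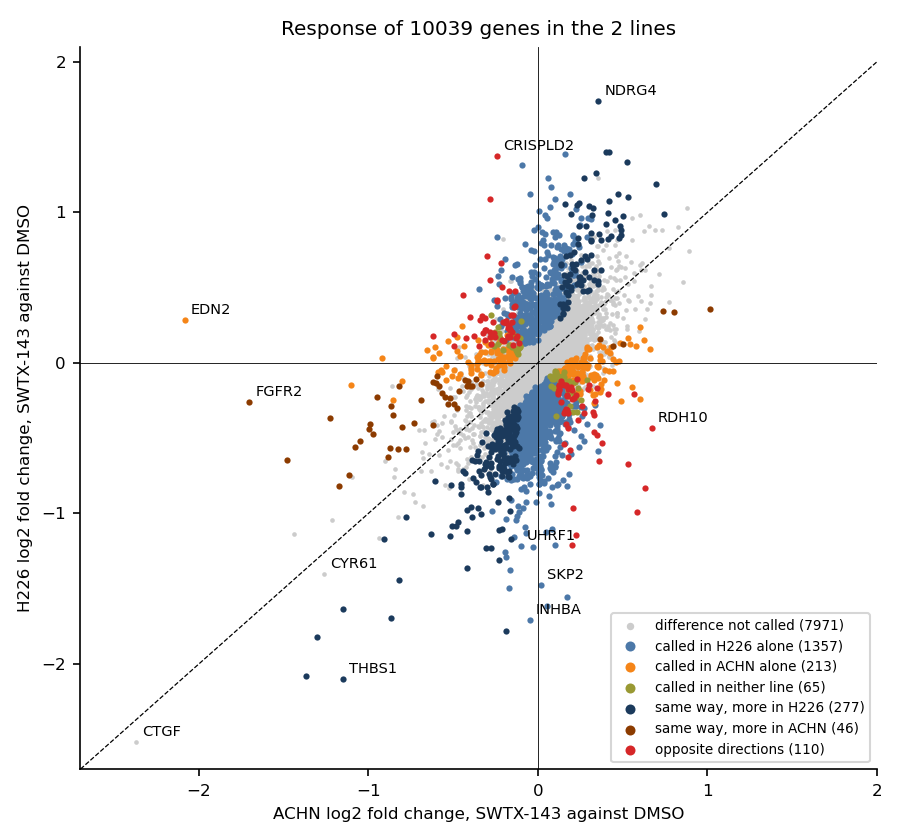
Log2 fold change with SWTX-143 in ACHN (x axis) and H226 (y axis) for the 10039 members, coloured by how the difference was called, with the line of equal response dashed. The cloud is taller than wide, with an SD of 0.29 in H226 and 0.18 in ACHN, and CTGF lies near the dashed line at the lower left.

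Most called differences were changes called in H226 alone, the line with more calls over all tested genes (37.8% against 15.2% in ACHN). That class held 1357 of the 2068 (65.6%), 938 of them falls and 419 rises in H226. Another 277 (13.4% of the 2068) changed the same way in both lines but more in H226, 190 down and 87 up. They were 2.76% of members, beside 1.98% of all tested genes. The reverse, a larger change the same way in ACHN, held 46 (2.22% of the 2068), and 40 of these were falls. The 46 were 0.458% of members, beside 0.355% of all tested genes. Changes called in ACHN alone numbered 213 (10.3%), opposite changes 110 (5.32%), and 65 had a called difference with neither line's change called. The opposite changes were 1.10% of members, beside 0.859% of all tested genes. No such share is given for the classes called in a single line or in neither. A like response could be stated for 2433 members (24.2%, background 16.6%), whose 95% interval of the difference lay within 0.25 log2 of 0. For 5539 members the difference was neither called nor bounded. The share called rose with level, from 13.3% in the 2510 members with the lowest level in their lower line to 27.1% in the 2510 with the highest, with a median SE of 0.16 and 0.066 log2. A group mean was under 5 CPM in 168 members, which had passed through the group where they were high, and without them 2026 of 9871 had a called difference.

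YAP/TEAD targets fell in both lines with nearly equal list medians, while single targets differed in size. Of 22 listed targets 20 were members (F3 and TGFB2 were under the minimum in a line). Of these, 14 fell in each line, with none higher in H226 and NT5E the 1 called higher in ACHN. Over all members 25.3% were called lower in H226 and 8.54% in ACHN (19.3% and 6.78% of all tested genes). The list's median log2 change was -0.50 in H226, -0.51 in ACHN and -0.059 for the difference, beside medians of -0.020, 0.0070 and -0.031 over all members. The difference was called in 8 of the 20, higher in 5 and lower in 3 (4 and 7 without ACHN SWTX-143 replicate 3). Over all members 7.18% were higher and 13.4% lower, and these shares apply to each list's counts below. For counts of falls in a line, the member shares of 25.3% in H226 and 8.54% in ACHN likewise apply below. Each count was repeated in 20 refits, 8 with another scaling, tool, filter or the replicate block and 12 with 1 library left out, which here gave 4 to 8 higher and 2 to 7 lower. The list was drawn up with earlier results of these data known.

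CTGF, a secreted CCN protein and a standard readout of YAP, stood in H226 at 68.5, 81.5 and 74.7 CPM with DMSO and 14.2, 11.99 and 13.8 CPM with SWTX-143. In ACHN it stood at 114, 116 and 112 CPM with DMSO and 23.6, 23.1 and 19.9 CPM with SWTX-143. All treated libraries lay far under all DMSO libraries in both lines. The log2 changes were -2.52 ± 0.077 (SE) in H226 and -2.37 ± 0.066 in ACHN, and their difference was -0.15 ± 0.11 (95% interval -0.37 to 0.068, adjusted p = 0.41). An H226 fall more than 0.37 log2 deeper than the ACHN fall lay outside that interval. Its relative CYR61 fell from 874 ± 26.9 to 338 ± 6.24 CPM in H226 and from 677 ± 11.4 to 284 ± 10.3 CPM in ACHN (SD, n = 3). That difference of -0.14 ± 0.056 did not pass the test (interval -0.25 to -0.028, adjusted p = 0.08; 0.045 with limma voom and 0.030 without ACHN SWTX-143 replicate 3).

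2 members whose fall was large in both lines had a difference bounded near 0. LATS2, a Hippo kinase that itself restrains YAP, gave -0.76 in H226 and -0.85 in ACHN (difference interval -0.060 to 0.24), and ATP8B1, a phospholipid flippase, gave -0.86 in H226 and -0.79 in ACHN (interval -0.25 to 0.12). Both pairs of groups were separate in each line. In all, 28 members changed by at least 0.7 log2 the same way in both lines, 22 down and 6 up. The difference was called in 11 of the 28, with 9 larger in H226 and 2 in ACHN.

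Several targets were graded differently. ANKRD1, a cardiac ankyrin repeat protein, stood in H226 at 11.1, 13.7 and 12.3 CPM with DMSO and 3.20, 2.93 and 2.81 CPM with SWTX-143 and in ACHN at 22.6, 20.8 and 19.2 CPM with DMSO and 9.01, 7.42 and 7.92 CPM with SWTX-143. No treated library reached a DMSO library, and the fall was deeper in H226 (-2.08 in H226 and -1.37 in ACHN, difference -0.71 ± 0.20). Its call was lost without H226 DMSO replicate 2. The treated H226 mean was under 5 CPM, so ANKRD1 passed the minimum there through its DMSO libraries and no p-value is given. GADD45A, a stress-induced growth arrest gene, also fell more in H226 (-0.60 in H226 and -0.21 in ACHN, difference -0.39 ± 0.078, adjusted p = 8.3e-05). The reverse held for AMOTL2, a junctional protein that binds YAP (-0.82 in H226 and -1.18 in ACHN, difference 0.36 ± 0.059, adjusted p = 1.8e-06), for CRIM1, a membrane protein that binds growth factors (-0.44 in H226 and -0.999 in ACHN, difference 0.56 ± 0.055, adjusted p = 1.4e-13), and for the matrix protein CCDC80 (-0.57 in H226 and -0.87 in ACHN, difference 0.31 ± 0.053, adjusted p = 4.8e-06). AXL, a receptor kinase, differed less (-0.30 in H226 and -0.48 in ACHN, difference 0.18 ± 0.056, adjusted p = 0.02), and its call was lost without ACHN SWTX-143 replicate 3. ASAP1, an Arf regulator, fell in ACHN alone (0.063 in H226 and -0.24 in ACHN, difference 0.30 ± 0.061, adjusted p = 1.0e-04).

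NT5E, the ectonucleotidase CD73 that makes adenosine, moved opposite ways. It stood in H226 at 62.4, 67.1 and 61.3 CPM with DMSO and 58.6, 53.3 and 57.4 CPM with SWTX-143 and in ACHN at 89.4, 75.3 and 79.4 CPM with DMSO and 115, 127 and 123 CPM with SWTX-143. The groups did not overlap in either line, and the difference was -0.77 ± 0.081 (adjusted p = 2.6e-12). For IGFBP3, NUAK2, FJX1, ARHGEF17, DOCK5, MYOF, PTPN14, RBMS3 and FOXF2 the difference was not called, and its intervals ran from -0.73 to 0.53. MYOF (-0.087 to 0.13) had the tightest of these. Some calls turned on the fit. ARHGEF17 was called under the 4 other scalings (adjusted p = 0.015 to 0.037) and without 6 libraries in turn, and IGFBP3 with DESeq2's size factors (0.043), no filter, the replicate block (0.0050) and without 5 libraries in turn. DOCK5 was called with no filter (0.0082) and with the block (0.031), NUAK2 with limma voom (0.048) and without ACHN SWTX-143 replicate 2 or 3, and FJX1 (0.039) and FOXF2 (0.0495) without replicate 3 of that group.

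**Figure D2:**
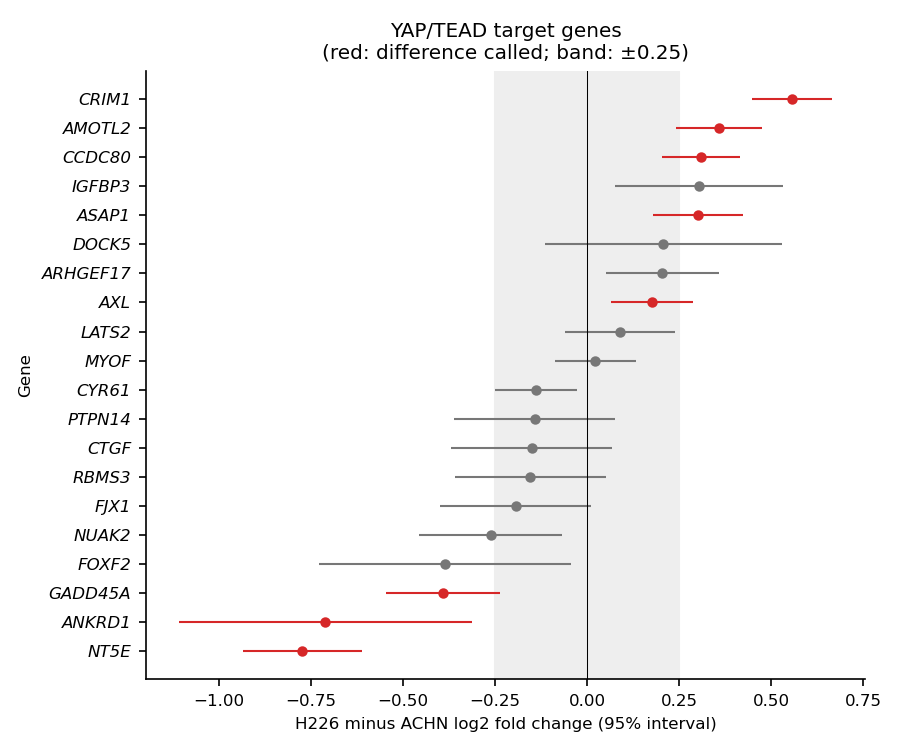
H226 minus ACHN difference in log2 fold change for the 20 YAP/TEAD targets that were members, with 95% intervals, called differences in red and the band of 0.25 log2 either side of 0 in grey. The points lie on both sides of 0, from -0.77 for NT5E to 0.56 for CRIM1.

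Of the factors themselves, TAZ (WWTR1) rose in H226 from 40.1 ± 0.255 to 52.9 ± 4.07 CPM and fell in ACHN from 242 ± 15.2 to 221 ± 4.22 CPM, a difference of 0.51 ± 0.076 (adjusted p = 2.0e-07). TEAD4 fell in both and more in H226 (-0.68 in H226 and -0.23 in ACHN, difference -0.46 ± 0.079, adjusted p = 5.2e-06). TEAD1 fell in both (-0.35 in H226 and -0.49 in ACHN, difference 0.15 ± 0.061, adjusted p = 0.093), with a difference that passed under other scalings (adjusted p = 0.016 to 0.049). YAP1 rose in both (0.14 in H226 and 0.22 in ACHN, difference -0.078 ± 0.064, adjusted p = 0.49). TEAD2, TEAD3 (0.038 with limma voom) and VGLL4, a competitor of YAP for TEAD, had no called difference, and VGLL3 was no member. VGLL4 overlaps ATG7, whose reads cannot be told apart without a strand setting.

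Among 30 Hippo pathway components the difference was higher in 3 and lower in 2 (3 to 5 higher and 1 to 3 lower over the refits; 5 higher without H226 DMSO replicate 1 or H226 SWTX-143 replicate 2). AJUBA, a LIM protein that inhibits LATS kinases, fell more in ACHN (-0.47 in H226 and -0.97 in ACHN, difference 0.50 ± 0.067, adjusted p = 9.1e-09). So did WWC1 (KIBRA), an activator of the kinase chain (-0.28 in H226 and -0.53 in ACHN, difference 0.26 ± 0.054, adjusted p = 2.4e-04).

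DNA replication genes fell in H226, and none was called lower in ACHN. Of 47 listed genes 46 were members, 45 fell in H226 and none rose, while in ACHN none fell and 1 rose. The list's median log2 change was -0.58 in H226, -0.024 in ACHN and -0.60 for the difference. The difference was called lower in 44 and higher in none, and this count was 42 to 44 over the refits. The largest differences covered origin licensing, unwinding and chromatin copying, with MCM10 (-1.21), DTL (-1.18, adjusted p = 3.8e-13), UHRF1 (-1.12), GINS2 (-1.01, adjusted p = 2.0e-11), CDC45 (-0.95, adjusted p = 8.4e-08) and ORC1 (-0.92, adjusted p = 6.1e-09). The exceptions were GINS3 (-0.36 to 0.13) and RRM1 (-0.23 to 0.018), whose difference was not called.

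UHRF1, which carries DNA methylation across replication, stood in H226 at 54.4, 54.96 and 54.3 CPM with DMSO and 24.2, 23.01 and 24.5 CPM with SWTX-143. The ACHN libraries held 99.1, 91.4 and 92.4 CPM with DMSO and 88.6, 88.7 and 88.8 CPM with SWTX-143. The H226 groups were far apart, and the ACHN treated libraries were lower by a small margin that did not pass the test (-1.22 in H226 and -0.10 in ACHN, difference -1.12 ± 0.083, adjusted p = 3.6e-19). MCM3, a subunit of the replicative helicase, stood in H226 at 128, 135 and 130.2 CPM with DMSO and 82.1, 74.8 and 79.5 CPM with SWTX-143. In ACHN its level was 203, 205 and 214 CPM with DMSO and 209, 201 and 191 CPM with SWTX-143. Its difference was -0.70 ± 0.066 (adjusted p = 2.5e-14). PCNA, the sliding clamp of DNA polymerases, fell from 71.9 ± 3.91 to 51.9 ± 1.54 CPM in H226 and went from 205 ± 3.78 to 210.1 ± 5.30 CPM in ACHN (difference -0.53 ± 0.071, adjusted p = 8.2e-09).

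The other helicase subunits had lower differences too. MCM2 (-0.76, adjusted p = 2.8e-14), MCM4 (-0.70, adjusted p = 3.9e-16), MCM5 (-0.91, adjusted p = 3.5e-15), MCM6 (-0.82, adjusted p = 1.0e-15) and MCM7 (-0.56, adjusted p = 3.5e-12) all differed, as did its loaders CDC6 (-0.89, adjusted p = 9.0e-17) and CDT1 (-0.61, adjusted p = 1.6e-07). The cyclin CCNE2 (-0.73, adjusted p = 4.5e-04) and the factor E2F1 (-0.74, adjusted p = 7.6e-06) were in the same direction.

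**Figure D3:**
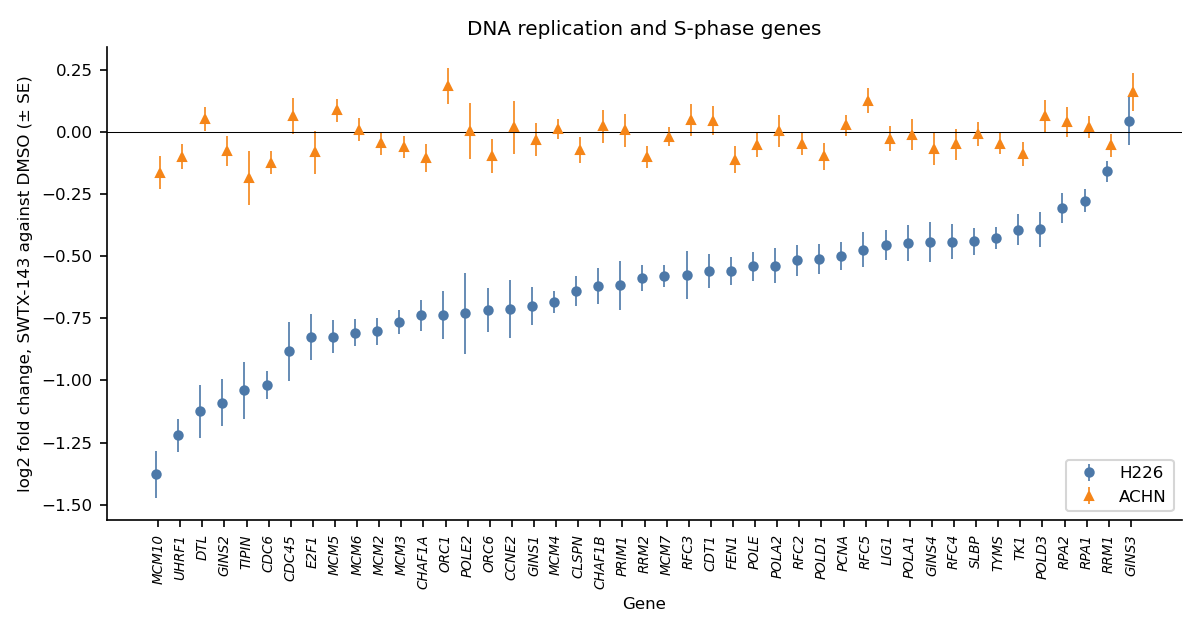
Log2 fold change with SWTX-143 (± SE) in H226 (circles) and ACHN (triangles) for 45 of the 46 DNA replication and S-phase genes, ordered by the H226 value. The ACHN points lie within 0.19 log2 of 0 and the H226 points run down to -1.38.

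SKP2, the F-box protein that directs the CDK inhibitor p27 to degradation, stood in H226 at 441, 443 and 416 CPM with DMSO and 163, 158 and 157 CPM with SWTX-143. In ACHN it stood at 43.7, 41.3 and 44.9 CPM with DMSO and 45.2, 43.2 and 44.5 CPM with SWTX-143. The groups were far apart in H226 and overlapped in ACHN, and the difference was -1.50 ± 0.073 (adjusted p = 1.0e-29). CDC25A, the phosphatase that opens the G1/S step, fell in both but more in H226 (-1.31 in H226 and -0.23 in ACHN, difference -1.08 ± 0.14, adjusted p = 3.1e-09). CCND1 (cyclin D1) fell in H226 (-0.55 in H226 and -0.024 in ACHN, difference -0.53 ± 0.058, adjusted p = 1.0e-11). FAM111B, a serine protease, fell in H226 and rose slightly in ACHN (-1.21 in H226 and 0.20 in ACHN, difference -1.41 ± 0.095, adjusted p = 1.3e-21). DDX20, an RNA helicase of the SMN complex, fell in H226 (-1.62 in H226 and 0.054 in ACHN, difference -1.67 ± 0.10, adjusted p = 1.8e-23).

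The count of mitotic genes that differed turned on the fit. Of 51 G2 and mitosis genes, the difference was lower in 9 and higher in 3 (1 to 4 higher and 4 to 9 lower over the refits). With DESeq2, or without H226 DMSO replicate 1 or 2 or H226 SWTX-143 replicate 3, 4 were lower, and 1 was higher without ACHN DMSO replicate 1 or ACHN SWTX-143 replicate 1. The list's median log2 change was -0.095 in H226, -0.042 in ACHN and -0.057 for the difference, and in 23 members the difference was bounded within 0.25 log2. The condensin subunit SMC2 (-0.47 in H226 and -0.080 in ACHN, difference -0.39 ± 0.061, adjusted p = 5.4e-07) and the checkpoint protein BUB3 (-0.34 in H226 and -0.022 in ACHN, difference -0.32 ± 0.067, adjusted p = 2.0e-04) fell in H226, while the phosphatase CDC25B rose there (0.34 in H226 and -0.016 in ACHN, difference 0.36 ± 0.080, adjusted p = 5.7e-04). ANLN, a scaffold of the cleavage furrow that overlaps KIAA0895, fell in both and more in H226 (-0.55 in H226 and -0.25 in ACHN, difference -0.30 ± 0.053, adjusted p = 1.1e-05).

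Ribosome assembly and nucleotide synthesis fell more in H226. Of 37 nucleolar genes 36 fell in H226 and 19 in ACHN, with none higher in either. The median log2 change was -0.46 in H226, -0.17 in ACHN and -0.33 for the difference, and the difference was lower in 28 and higher in none (18 to 29 lower over the refits, 18 with DESeq2). DKC1, the pseudouridine synthase of small nucleolar particles, fell in H226 (-0.77 in H226 and -0.12 in ACHN, difference -0.65 ± 0.068, adjusted p = 2.0e-12). NOLC1 (-0.75 in H226 and -0.21 in ACHN, difference -0.54 ± 0.058, adjusted p = 5.0e-12), the helicase DDX21 (-0.81 in H226 and -0.26 in ACHN, difference -0.54 ± 0.058, adjusted p = 5.6e-12) and the rRNA methyltransferase NOP2 (-0.75 in H226 and -0.18 in ACHN, difference -0.57 ± 0.071, adjusted p = 8.4e-10) fell in both and more in H226.

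Of 31 nucleotide, one-carbon and polyamine genes, 25 fell in H226 and 6 in ACHN, and the difference was lower in 21 (18 to 22 lower over the refits) and higher in none. CTPS1, which makes CTP, stood in H226 at 80.2, 79.02 and 78.01 CPM with DMSO and 33.2, 37.8 and 36.8 CPM with SWTX-143 and in ACHN at 89.9, 86.4 and 89.2 CPM with DMSO and 77.6, 82.6 and 80.1 CPM with SWTX-143. The groups were separate in both lines, widely so in H226 (-1.17 in H226 and -0.16 in ACHN, difference -1.01 ± 0.079, adjusted p = 3.5e-18). PRPS1, which makes the ribose donor of purines and pyrimidines, fell in both (-1.15 in H226 and -0.52 in ACHN, difference -0.63 ± 0.066, adjusted p = 1.6e-12), as did the spermidine synthase SRM (-0.69 in H226 and -0.20 in ACHN, difference -0.49 ± 0.070, adjusted p = 5.7e-08). GART, a purine enzyme that overlaps SON, fell in H226 (-0.51 in H226 and -0.037 in ACHN, difference -0.47 ± 0.063, adjusted p = 7.1e-09). Of 20 tRNA synthetases the difference was lower in 6 (4 to 7 lower over the refits), led by FARSB (-0.67 in H226 and -0.11 in ACHN, difference -0.56 ± 0.076, adjusted p = 1.2e-08) and VARS (-0.55 in H226 and -0.10 in ACHN, difference -0.44 ± 0.064, adjusted p = 7.0e-08).

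Structural ribosomal proteins and respiratory chain genes gave mostly like responses. A bounded difference was more frequent at higher levels. It was found in 8 of the 2510 members with the lowest level in their lower line and in 1343 of the 2510 with the highest. The difference was bounded within 0.25 log2 in 31 of 36 cytosolic ribosomal protein genes and in 23 of 33 oxidative phosphorylation genes. The share over all members was 24.2%, and the difference was not compared with genes of matched level. It was called lower in 3 ribosomal protein genes (0 to 2 higher and 1 to 4 lower over the refits; 2 higher and 1 lower without H226 SWTX-143 replicate 3, and 1 lower without H226 DMSO replicate 1, 2 or 3 or H226 SWTX-143 replicate 2), among them RPL27 (-0.10 in H226 and 0.16 in ACHN, difference -0.26 ± 0.061, adjusted p = 8.7e-04). Of the oxidative phosphorylation genes it was called lower in 2, in 1 without any of 9 libraries and in none without H226 DMSO replicate 2. Cytochrome c (CYCS) was one of them (-0.49 in H226 and -0.24 in ACHN, difference -0.25 ± 0.059, adjusted p = 0.0011) and lost its call without that library (adjusted p = 0.050). Ribosomal protein genes have many processed copies, so their reads may be shared.

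**Figure D4:**
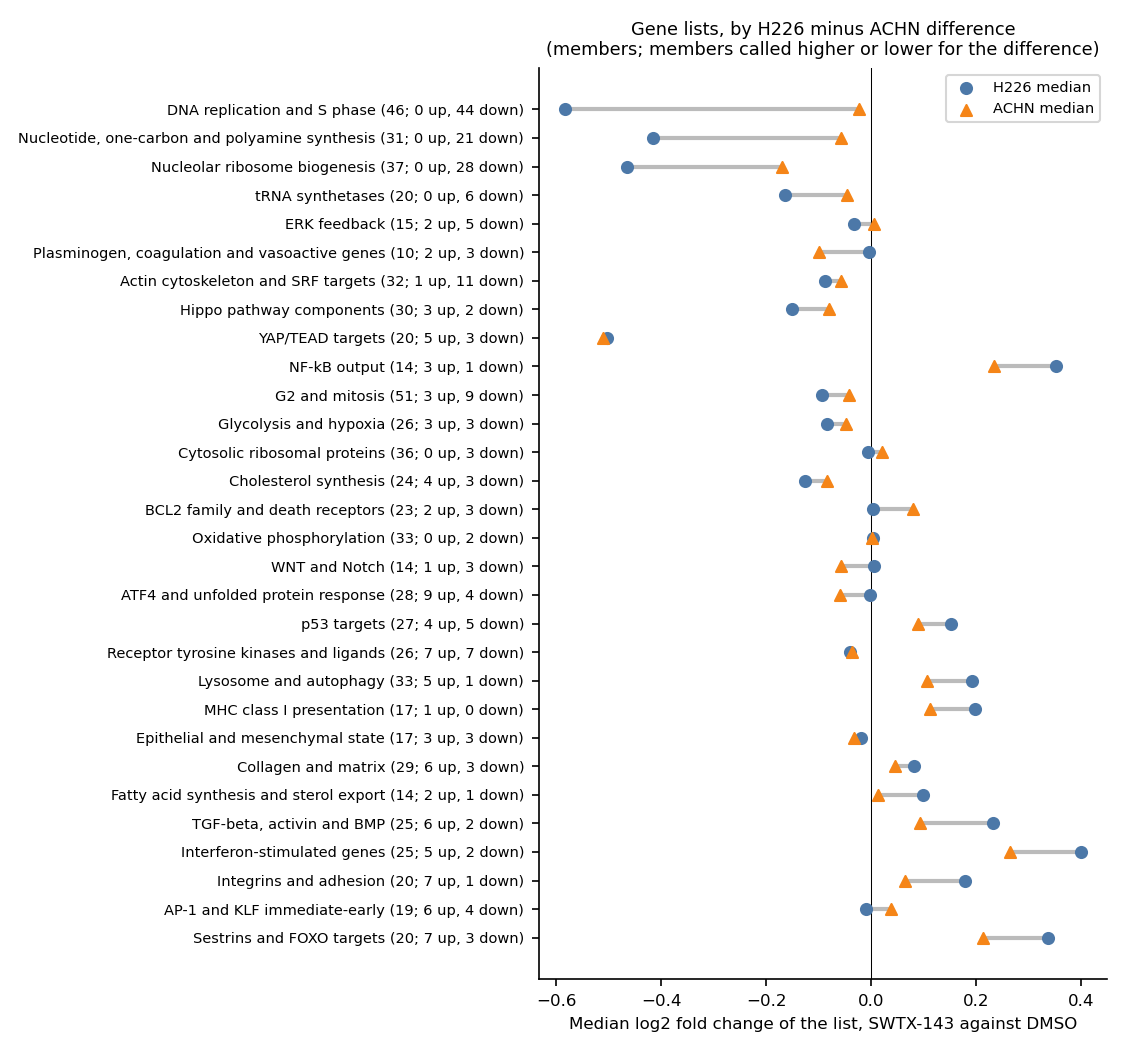
Median log2 fold change of each of the 30 gene lists in H226 (circles) and ACHN (triangles), ordered by the median difference, with the number of members and of called differences beside each name. Replication, nucleotide and nucleolar genes have the widest gaps, with medians of -0.58, -0.41 and -0.46 in H226, while YAP/TEAD targets have nearly equal medians of -0.50 and -0.51.

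Growth factor genes were among the widest differences in both directions. INHBA, the subunit of activin A, stood in H226 at 96.6, 101 and 96.9 CPM with DMSO and 31.01, 27.3 and 33.6 CPM with SWTX-143. The ACHN libraries held 93.8, 98.9 and 90.6 CPM with DMSO and 94.7, 89.3 and 92.3 CPM with SWTX-143. The groups separated in H226 and overlapped in ACHN. The difference was -1.66 ± 0.081 (adjusted p = 9.7e-30). MSX1, a homeobox factor that responds to BMP, fell in H226 (-1.56 in H226 and 0.17 in ACHN, difference -1.73 ± 0.18, adjusted p = 8.1e-13), as did the type I receptor TGFBR1 (-0.72 in H226 and 0.092 in ACHN, difference -0.81 ± 0.095, adjusted p = 7.8e-11). FSTL1, a secreted follistatin-like protein, fell in both and more in ACHN (-0.40 in H226 and -0.73 in ACHN, difference 0.33 ± 0.059, adjusted p = 1.1e-05). TGFB1 rose in H226 and fell in ACHN (0.32 in H226 and -0.15 in ACHN, difference 0.46 ± 0.074, adjusted p = 9.2e-07), but overlaps HNRNPUL1, whose counts were higher than its own. Over 25 TGF-beta, activin and BMP genes the difference was higher in 6 and lower in 2 (4 to 8 higher and 2 to 3 lower over the refits).

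FGFR2, a receptor for fibroblast growth factors, stood in H226 at 16.8, 14.03 and 13.5 CPM with DMSO and 14.4, 12.8 and 10.8 CPM with SWTX-143. In ACHN its level was 88.2, 89.3 and 90.4 CPM with DMSO and 25.8, 29.2 and 28.1 CPM with SWTX-143. The H226 groups overlapped and the ACHN groups were far apart, with a difference of 1.44 ± 0.13 (adjusted p = 8.3e-16). FGFR1 moved opposite ways (0.15 in H226 and -0.31 in ACHN, difference 0.47 ± 0.057, adjusted p = 5.4e-10) and the ligand FGF2 fell more in H226 (-0.74 in H226 and -0.29 in ACHN, difference -0.45 ± 0.060, adjusted p = 6.7e-09); FGFR1 overlaps LETM2 and FGF2 overlaps NUDT6. ERBB3, a receptor for neuregulins, stood in H226 at 132, 131 and 129.5 CPM with DMSO and 59.7, 59.5 and 62.2 CPM with SWTX-143. In ACHN it stood at 23.4, 22.4 and 23.8 CPM with DMSO and 28.02, 26.6 and 27.3 CPM with SWTX-143. No treated library overlapped a DMSO library, falling in H226 and rising slightly in ACHN, and the difference was -1.36 ± 0.090 (adjusted p = 6.5e-22). Over 26 receptor kinases and ligands 7 differences were higher and 7 lower (3 to 9 higher and 5 to 7 lower over the refits; 3 higher without ACHN SWTX-143 replicate 3).

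Of 10 vasoactive and coagulation genes the difference was higher in 2 and lower in 3 (2 to 3 higher and 1 to 3 lower over the refits; 1 lower without ACHN DMSO replicate 1 or ACHN SWTX-143 replicate 1). EDN2, a vasoconstrictor peptide, stood in ACHN at 63.3, 70.6 and 76.6 CPM with DMSO and 16.5, 15.8 and 17.7 CPM with SWTX-143. In H226 it stood at 4.91, 3.55 and 6.40 CPM with DMSO and 6.13, 6.49 and 5.62 CPM with SWTX-143. The ACHN groups were far apart and the H226 groups overlapped at a level around the minimum. The difference of 2.37 ± 0.19 was the largest positive one by the naming rule. EDN2 averaged under 5 CPM under DMSO in H226 and passed the minimum through the treated libraries, so no test is given for it. ADM (adrenomedullin, a vasodilator peptide) fell in both (-1.82 in H226 and -1.30 in ACHN, difference -0.52 ± 0.15). Its call was lost without ACHN DMSO replicate 1 or ACHN SWTX-143 replicate 1. The treated ACHN mean was under 5 CPM, so ADM passed the minimum there through its DMSO libraries and no p-value is given. THBS1, a matrix protein that activates TGF-beta, fell in both (-2.10 in H226 and -1.15 in ACHN, difference -0.95 ± 0.17). It did so from very unlike levels, 13.6 ± 0.932 CPM in H226 and 2550.4 ± 163 CPM in ACHN. Its difference missed the limit with limma voom. The treated H226 mean was under 5 CPM, so THBS1 passed the minimum there through its DMSO libraries and no p-value is given. PLAUR, the urokinase receptor, fell in ACHN alone (0.038 in H226 and -0.36 in ACHN, difference 0.40 ± 0.10, adjusted p = 0.002).

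**Figure D5:**
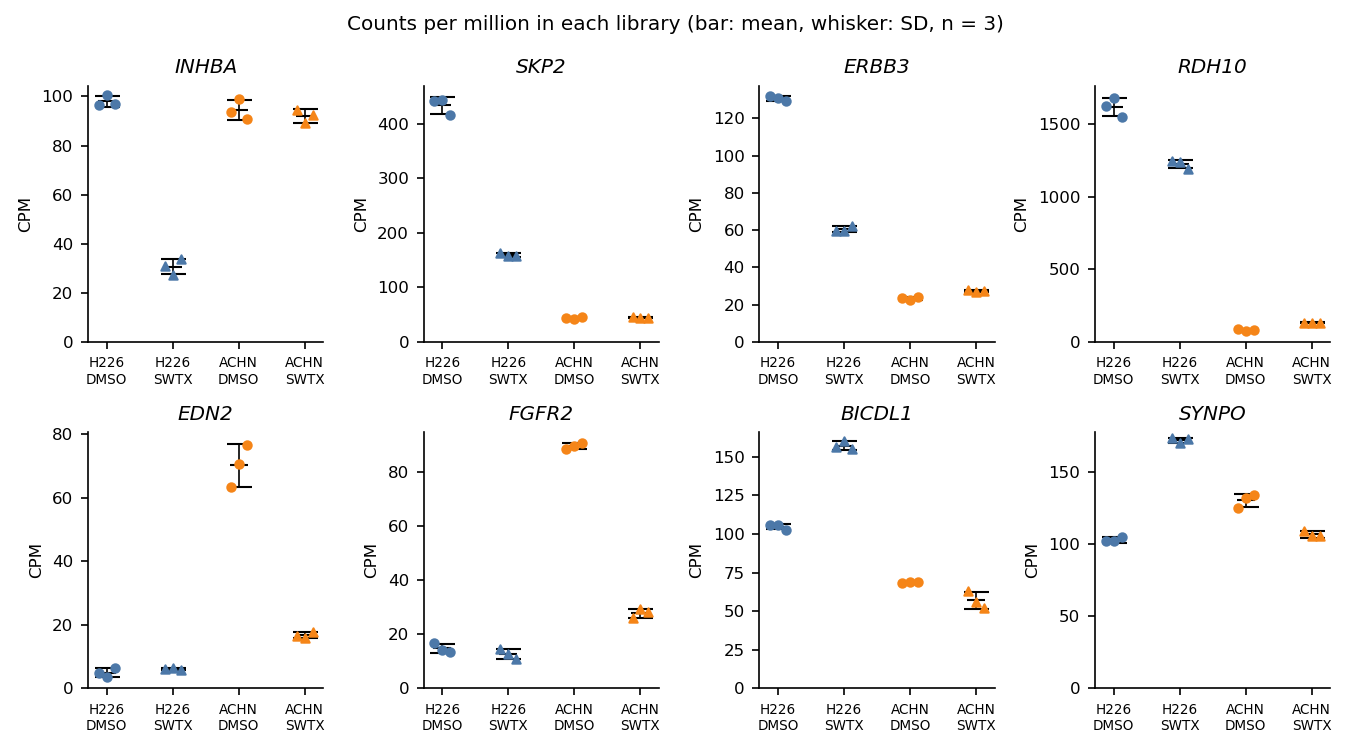
CPM (y axis, from 0) in each of the 12 libraries for 8 genes, with DMSO as circles and SWTX-143 as triangles, H226 in blue and ACHN in orange, the mean as a bar and the SD as whiskers (n = 3). INHBA, SKP2 and ERBB3 drop in H226 alone, EDN2 and FGFR2 drop in ACHN, and RDH10, BICDL1 and SYNPO go opposite ways in the lines.

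Opposite responses were called in 110 members, 55 in each direction. RDH10, a retinol dehydrogenase of retinoic acid synthesis, stood in H226 at 1627, 1676 and 1549 CPM with DMSO and 1248, 1236 and 1192 CPM with SWTX-143. The ACHN libraries held 85.7, 77.3 and 80.3 CPM with DMSO and 133, 131 and 127 CPM with SWTX-143. The groups were separate in each line, in opposite directions (-0.43 in H226 and 0.67 in ACHN, difference -1.10 ± 0.061, adjusted p = 2.4e-26). Lower in H226 and higher in ACHN with it were the glycosyltransferase B3GNT7, the junction protein PLEKHA7, the transporters SLCO4A1 and SLC1A1, SERAC1 and the transcription factor SALL2, with differences from -1.58 to -0.68. SLCO4A1 overlaps its antisense RNA and averaged under 5 CPM in treated H226, so it passed the minimum there only through its DMSO libraries.

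SYNPO, an actin-associated protein, went the other way. It stood in H226 at 102, 102 and 105 CPM with DMSO and 173, 170.2 and 173 CPM with SWTX-143 and in ACHN at 125, 132 and 134 CPM with DMSO and 109, 105 and 105 CPM with SWTX-143. All treated libraries were above DMSO in H226 and below it in ACHN (0.71 in H226 and -0.30 in ACHN, difference 1.01 ± 0.065, adjusted p = 1.7e-22). With it were the receptor TNFRSF19, AVPI1, the dynein adaptor BICDL1 (0.55 in H226 and -0.28 in ACHN, difference 0.84 ± 0.075, adjusted p = 3.3e-15), the kinase PTK2B, RABGGTA, the deiminase PADI1 and the collagen crosslinker LOX, with differences from 0.61 to 1.37. LOX overlaps SRFBP1. CRISPLD2, a secreted glycoprotein, stood in H226 at 2.23, 3.73 and 3.41 CPM with DMSO and 8.01, 8.53 and 8.24 CPM with SWTX-143 and in ACHN at 109.9, 112 and 119.6 CPM with DMSO and 104, 96.4 and 91.4 CPM with SWTX-143. It passed the minimum in H226 only through its treated libraries, as did TNFRSF19, so no test is given for it (1.38 in H226 and -0.24 in ACHN).

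The integrin and adhesion list had 7 higher differences and 1 lower among 20 members (7 to 9 higher and 0 to 2 lower over the refits), beside 7.18% higher and 13.4% lower over all members. The lower call was lost without any of 9 libraries. ITGB8, an integrin subunit that activates latent TGF-beta, stood in H226 at 12.8, 10.1 and 12.6 CPM with DMSO and 30.6, 28.2 and 31.1 CPM with SWTX-143. In ACHN its level was 59.6, 62.3 and 60.4 CPM with DMSO and 56.8, 54.1 and 61.3 CPM with SWTX-143. The rise was separate in H226 and the ACHN groups overlapped (1.31 in H226 and -0.094 in ACHN, difference 1.41 ± 0.11, adjusted p = 3.0e-18). ITGB4 (0.50 in H226 and -0.0023 in ACHN, difference 0.51 ± 0.064, adjusted p = 1.3e-09) and L1CAM (0.47 in H226 and -0.050 in ACHN, difference 0.52 ± 0.057, adjusted p = 1.1e-11) rose in H226, and MCAM, which overlaps CBL, moved opposite ways (0.27 in H226 and -0.27 in ACHN, difference 0.54 ± 0.074, adjusted p = 2.2e-08). Of 29 collagen and matrix genes 6 differences were higher and 3 lower (6 to 10 higher and 2 to 3 lower over the refits), and SPARC (-0.12 in H226 and -0.62 in ACHN, difference 0.50 ± 0.054, adjusted p = 6.3e-12) and COL4A1 (-0.23 in H226 and -0.52 in ACHN, difference 0.28 ± 0.053, adjusted p = 2.7e-05) fell more in ACHN, and COL8A1 fell in H226 (-0.43 in H226 and 0.042 in ACHN, difference -0.48 ± 0.078, adjusted p = 1.6e-06).

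The actin list had 11 lower differences and 1 higher among 32 members (0 to 2 higher and 7 to 11 lower over the refits; 7 lower without H226 DMSO replicate 2). FHL2, a LIM-domain coactivator (-0.84 in H226 and -0.10 in ACHN, difference -0.73 ± 0.064, adjusted p = 7.5e-16), and LIMA1, an actin crosslinker (-0.59 in H226 and 0.11 in ACHN, difference -0.71 ± 0.079, adjusted p = 1.9e-11), fell in H226. Tropomyosin TPM1 fell in both and more in H226 (-0.72 in H226 and -0.21 in ACHN, difference -0.51 ± 0.054, adjusted p = 3.1e-12). Beta-actin (ACTB) fell in H226 (-0.25 in H226 and 0.070 in ACHN, difference -0.32 ± 0.052, adjusted p = 2.0e-06).

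Stress and survival genes were mixed. Of 28 ATF4 and unfolded protein response genes the difference was higher in 9 and lower in 4 (8 to 9 higher and 4 lower over the refits). DDIT4, a restraint on mTORC1, rose in both and more in H226, from 37.3 ± 3.001 to 101 ± 4.70 CPM against 97.5 ± 11.3 to 130.0 ± 6.54 CPM in ACHN (1.40 in H226 and 0.40 in ACHN, difference 1.003 ± 0.092, adjusted p = 1.0e-10). SLC7A5, a carrier of large neutral amino acids, fell in both and more in H226 (-1.45 in H226 and -0.82 in ACHN, difference -0.62 ± 0.061, adjusted p = 1.0e-13), HERPUD1 moved opposite ways (0.42 in H226 and -0.24 in ACHN, difference 0.66 ± 0.072, adjusted p = 1.0e-11) and NUPR1 rose in H226 (0.78 in H226 and 0.078 in ACHN, difference 0.70 ± 0.086, adjusted p = 4.6e-10). SESN2, another mTORC1 restraint, rose in ACHN alone (0.016 in H226 and 0.48 in ACHN, difference -0.46 ± 0.087, adjusted p = 2.7e-05). NDRG4, of the NDRG family, rose in both and more in H226, from 13.4 ± 1.71 to 45.7 ± 2.998 CPM against 23.9 ± 3.05 to 30.9 ± 3.64 CPM (1.74 in H226 and 0.36 in ACHN, difference 1.38 ± 0.13, adjusted p = 1.2e-12).

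Sestrin and FOXO-linked genes had 7 higher and 3 lower differences among 20 members (4 to 10 higher and 2 to 3 lower over the refits; 4 higher without ACHN DMSO replicate 3). BCL2L11, the death-promoting protein BIM, rose in both and more in H226 (1.04 in H226 and 0.30 in ACHN, difference 0.74 ± 0.11, adjusted p = 3.1e-07), but overlaps MIR4435-2HG, whose counts were of the same order. IRS2, an insulin receptor adaptor, fell in ACHN alone (-0.15 in H226 and -1.10 in ACHN, difference 0.95 ± 0.10, adjusted p = 4.0e-13). KLF6 moved opposite ways (-0.15 in H226 and 0.30 in ACHN, difference -0.45 ± 0.071, adjusted p = 6.7e-07). In the BCL2 and death receptor list 2 differences were higher and 3 lower of 23 (1 to 4 higher and 2 to 4 lower over the refits; 4 higher without H226 DMSO replicate 3 or H226 SWTX-143 replicate 3, 1 without ACHN DMSO replicate 2 or ACHN SWTX-143 replicate 2). Among 27 p53 targets 4 were higher (7 without H226 SWTX-143 replicate 3) and 5 lower (3 to 7 higher and 5 lower over the refits), with PLK2 falling more in H226 (-0.93 in H226 and -0.24 in ACHN, difference -0.69 ± 0.055, adjusted p = 1.7e-17), GDF15 rising more there (0.72 in H226 and 0.19 in ACHN, difference 0.53 ± 0.083, adjusted p = 7.2e-07) and XPC, which overlaps LSM3, moving opposite ways (0.20 in H226 and -0.32 in ACHN, difference 0.52 ± 0.068, adjusted p = 3.1e-09).

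Immediate-early and kinase feedback genes divided within their lists. JUN, a subunit of AP-1, fell in H226 (-0.99 in H226 and -0.11 in ACHN, difference -0.88 ± 0.071, adjusted p = 2.2e-17), while the phosphatase DUSP1 fell more in ACHN (-0.34 in H226 and -0.86 in ACHN, difference 0.51 ± 0.069, adjusted p = 7.6e-09) and KLF10 rose in H226 (0.63 in H226 and 0.14 in ACHN, difference 0.49 ± 0.081, adjusted p = 2.0e-06), among 6 higher and 4 lower of 19 (3 to 7 higher and 2 to 4 lower over the refits; 3 higher without ACHN SWTX-143 replicate 3, 2 lower without H226 DMSO replicate 3 or H226 SWTX-143 replicate 1). In the ERK feedback list, 2 higher and 5 lower of 15 (2 higher and 4 to 5 lower over the refits), IER3 fell in H226 (-0.87 in H226 and 0.0044 in ACHN, difference -0.87 ± 0.12, adjusted p = 8.1e-09) and the ephrin receptor EPHA2 fell more in ACHN (-0.13 in H226 and -0.60 in ACHN, difference 0.47 ± 0.061, adjusted p = 3.4e-09). Of 14 WNT and Notch genes, FZD1 fell in H226 (-0.66 in H226 and -0.0084 in ACHN, difference -0.65 ± 0.086, adjusted p = 5.0e-09), WNT5B fell in both (-1.01 in H226 and -0.34 in ACHN, difference -0.67 ± 0.13, adjusted p = 5.4e-05) and HES1 rose in ACHN (0.13 in H226 and 0.55 in ACHN, difference -0.42 ± 0.13, adjusted p = 0.016), 1 higher and 3 lower in all (1 to 2 higher and 2 to 3 lower over the refits). The HES1 difference was not called with DESeq2 (adjusted p = 0.090) or without any of 5 libraries (0.056 to 0.064), H226 DMSO replicates 1 and 3, H226 SWTX-143 replicate 1, ACHN DMSO replicate 3 and ACHN SWTX-143 replicate 1.

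More interferon and lysosome genes were called higher in H226 than in ACHN, as were more of all tested genes. Those shares were 18.5% in H226 and 8.46% in ACHN. Over members alone they were 19.2% and 9.57%, and they apply to both lists. Of 25 interferon-stimulated genes 21 rose in H226 (background 18.5%) and 12 in ACHN (background 8.46%), and the difference was higher in 5 and lower in 2 (2 to 7 higher and 1 to 2 lower over the refits; 2 higher without ACHN DMSO replicate 3, 3 without ACHN SWTX-143 replicate 2). SAMD9L, an antiviral protein, rose more in H226 (0.82 in H226 and 0.37 in ACHN, difference 0.45 ± 0.13, adjusted p = 0.0093). Of 33 lysosome and autophagy genes 22 rose in H226 and 11 in ACHN, with 5 differences higher and 1 lower (3 to 12 higher and 0 to 1 lower over the refits; 12 higher without H226 SWTX-143 replicate 3, 8 without H226 DMSO replicate 2 and 3 without ACHN SWTX-143 replicate 2, and the lower call lost without any 1 library). The sialidase NEU1 was an example (0.59 in H226 and 0.19 in ACHN, difference 0.40 ± 0.078, adjusted p = 5.7e-05). Of 14 NF-kB output genes 3 differences were higher and 1 lower (3 to 4 higher and 1 to 2 lower over the refits), with TNFAIP2 rising more in H226 (0.72 in H226 and 0.32 in ACHN, difference 0.40 ± 0.058, adjusted p = 8.3e-08).

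Lipid and glucose genes had differences in both directions. In cholesterol synthesis 4 were higher and 3 lower of 24 (2 to 4 higher and 0 to 5 lower over the refits; 2 higher and 1 lower without ACHN DMSO replicate 1, none lower without H226 DMSO replicate 2, 1 without H226 DMSO replicate 1 or H226 SWTX-143 replicate 3 and 5 without ACHN SWTX-143 replicate 3). In fatty acid synthesis 2 were higher and 1 lower of 14 (1 to 3 higher and 1 to 2 lower over the refits), with ACLY, which makes acetyl-CoA, falling in H226 (-0.36 in H226 and 0.10 in ACHN, difference -0.45 ± 0.055, adjusted p = 4.7e-10) and SREBF1, which overlaps RAI1, rising there (0.39 in H226 and -0.12 in ACHN, difference 0.51 ± 0.064, adjusted p = 1.0e-09). In glycolysis and hypoxia 3 were higher and 3 lower of 26 (3 to 5 higher and 2 to 4 lower over the refits; 5 higher without H226 DMSO replicate 2 or H226 SWTX-143 replicate 3), with the glucose transporter SLC2A3 falling in H226 (-1.21 in H226 and 0.10 in ACHN, difference -1.31 ± 0.17, adjusted p = 5.5e-09) and LDHA, lactate dehydrogenase A, moving opposite ways (-0.26 in H226 and 0.13 in ACHN, difference -0.39 ± 0.053, adjusted p = 8.2e-09). MHC class I presentation had 1 higher (0 to 6 higher over the refits; 6 without H226 SWTX-143 replicate 3, 5 without H226 DMSO replicate 2) and none lower of 17, and 12 differences were bounded. Of 17 epithelial and mesenchymal genes 3 were higher and 3 lower (1 to 5 higher and 1 to 3 lower over the refits; 5 higher without H226 DMSO replicate 3, 5 higher and 1 lower without H226 SWTX-143 replicate 1, 1 higher without ACHN SWTX-143 replicate 3 and 1 lower without H226 DMSO replicate 1 or 2, H226 SWTX-143 replicate 2 or ACHN SWTX-143 replicate 2), led by the epithelial factor ELF3, which rose more in H226 (1.27 in H226 and 0.34 in ACHN, difference 0.92 ± 0.11, adjusted p = 6.7e-11).

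Of the larger differences outside these lists, C1orf198 fell in both and more in H226 (-1.78 in H226 and -0.19 in ACHN, difference -1.59 ± 0.083, adjusted p = 4.2e-28). HSD17B11, a lipid-droplet dehydrogenase (1.39 in H226 and 0.16 in ACHN, difference 1.23 ± 0.16, adjusted p = 5.3e-09), and CRABP2, a retinoic acid carrier (1.23 in H226 and 0.057 in ACHN, difference 1.17 ± 0.14, adjusted p = 5.5e-10) rose in H226, as did RAPGEF3, a cAMP sensor that overlaps the more highly counted SLC48A1 (1.12 in H226 and -0.048 in ACHN, difference 1.17 ± 0.11, adjusted p = 1.1e-14). Creatine kinase B (CKB, 1.17 in H226 and 0.079 in ACHN) and PPP1R3C, which targets a phosphatase to glycogen (0.83 in H226 and -0.24 in ACHN), averaged under 5 CPM under DMSO in H226 and passed the minimum through the treated libraries, so no test is given for them. Larger falls in ACHN than in H226 were those of CTIF, a translation factor (-0.37 in H226 and -1.23 in ACHN, difference 0.86 ± 0.076, adjusted p = 1.0e-15), the zinc finger gene ZBED2 (-0.65 in H226 and -1.48 in ACHN, difference 0.84 ± 0.12, adjusted p = 1.1e-07), the noncoding MIR22HG (-0.23 in H226 and -0.95 in ACHN, difference 0.72 ± 0.14, adjusted p = 9.1e-05) and FAM200B, which overlaps FBXL5 and BST1 (-0.15 in H226 and -0.82 in ACHN, difference 0.67 ± 0.10, adjusted p = 5.7e-07). The zinc finger gene ZNF714, which has close relatives that may share its reads, fell in H226 (-1.50 in H226 and -0.17 in ACHN, difference -1.33 ± 0.13, adjusted p = 2.2e-13).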

How the data were processed

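Poly(A) RNA libraries of 2 lines were read as counts per gene symbol. The deposited tables, 1 per line, hold raw read counts, whole numbers with unequal totals. Per the submitters' processing notes, the build was hg19 (GRCh37) and the tools were STAR 2.6.1d, cutadapt and FastQC. The sources used here do not give the counting program, its strand setting or annotation, so overlapping genes cannot be told apart. The tables were joined on symbol. edgeR 4.0.16 (R 4.3.3) fitted the 4 groups together after filterByExpr and TMM scaling, with robust quasi-likelihood F tests and Benjamini-Hochberg adjustment over 14664 genes (limit 0.05). SE were the log2 change over the root of F, and intervals are 95%. Printed CPM use plain library totals, and log2 changes come from the fit. The test was tried on simulated data.

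Replicates of a group differed by more than sampling noise (chi-square per degree of freedom 1.36 to 3.43). The members, lists and tests were chosen with earlier results of these data known. Genes were named by rule: the 12 largest called differences in each direction with treated and DMSO libraries separate in a line, 8 opposite changes per direction with the largest smaller effect, 5 graded changes per direction, shared changes of 0.7 log2 or more with a bounded difference, the YAP/TEAD targets, YAP/TAZ/TEAD/VGLL genes, and up to 4 genes of each list by p. Clone-type names and pseudogenes (190 members) were passed over. DTL, GINS2, GINS3, CDC45, ORC1, RRM1, MCM2, MCM3, MCM5, MCM7, CDT1, CCNE2, E2F1 and PCNA were named after their values were seen. Some genes that met the rules are not reported here. Overlaps and lengths came from GENCODE 29, promoters from RefSeq (GRCh38.p14). Alternatives were other scalings, DESeq2 1.42.0, limma 3.58.1 voom, no filter, other level minimums, a replicate block and each library left out.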

Additional observations from a re-analysis of the deposited data

Results flagged for a closer look

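The difference between the lines, tested directly, was called in 2068 members, and 110 of these moved in opposite directions, each line's change being called. Of those 110, those with the largest smaller-of-the-2 effect in each direction, 8 and 7 of them here, stand out for a closer look, since every treated library lay on the opposite side of DMSO in the 2 lines. Higher in H226 and lower in ACHN were TNFRSF19 (difference 1.37 log2), SYNPO (1.01), AVPI1 (0.89), BICDL1 (0.84), PTK2B (0.70), RABGGTA (0.64), PADI1 (0.63) and LOX (0.61). Lower in H226 and higher in ACHN were B3GNT7 (-1.58), PLEKHA7 (-1.46), SLCO4A1 (-1.20), RDH10 (-1.10), SLC1A1 (-1.01), SERAC1 (-0.83) and SALL2 (-0.68). In H226, TNFRSF19 under DMSO and SLCO4A1 under SWTX-143 averaged under 5 CPM. Each passed the minimum there only through its other group, so both values are given only as a description, with no test. Both are counted among the 110.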

How the results depend on the processing

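With DESeq2 the difference was called in 1366 members, 772 of them lower in H226, with 65 opposite changes, 157 same-way changes larger in H226 and 30 larger in ACHN. A 2-fold difference was called in 100 of 12192 genes at a minimum of 1 CPM and in 16 of 6690 at 20 CPM. Leaving out 1 library at a time gave 1605 to 2038 called members, 598 to 989 higher and 782 to 1339 lower, 38 to 46 at 2-fold, 3885 to 4489 members called in H226, 1428 to 2012 members called in ACHN, 77 to 110 opposite, 186 to 310 larger in H226, 35 to 44 larger in ACHN and 2091 to 2390 members with a difference bounded near 0. Lower calls were fewest without H226 DMSO replicate 2 (782) or replicate 3 (873). Higher calls made up 47.1% to 52.1% of calls without any 1 H226 library and 34.2% to 35.8% without any 1 ACHN library, and the cause was not tested.

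The deviations of same-numbered libraries correlated at r from -0.18 to -0.073 in ACHN and from -0.051 to 0.20 in H226, and since 4 of the 6 were under 0.1 the numbers were not taken to pair the samples. With the replicate block 2105 members were called, 759 higher and 1346 lower. A minimum of 5 CPM in each of the 4 groups, chosen after seeing the data, gave 2026. No named gene reversed: of 144 called named genes, 110 were tested under all 23 settings and 96 of these stayed called, and of 25 uncalled ones 15 were called under at least 1. Genes under about 15 CPM in their lower line had a median SE of 0.16 log2, so small differences there were not detectable at this depth.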

Other observations

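A run of zinc finger genes on chromosome 19 fell in H226 and not in ACHN. RefSeq places ZNF430, ZNF714, ZNF431, ZNF708, ZNF738, ZNF429 and ZNF100 near each other, and these 7 members were looked at together after the ZNF714 value had been seen, so no test is given. The difference was called lower in 6 of the 7 and higher in none, with a median of -0.58 log2, against 14 lower and 9 higher among all 214 ZNF-numbered members (median -0.03). ZNF714 (-1.33), ZNF431 (-1.20) and ZNF738 (-1.01) differed most, and ZNF429 (0.016) did not pass. These genes are close copies of one another, so reads may be shared among them.

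Of 15 mesothelial markers only LRRN4, UPK3B and TBX18 were members, and all 3 differences were higher in H226. LRRN4, a membrane protein of mesothelium, rose in H226 and fell in ACHN (0.41 in H226 and -0.24 in ACHN, difference 0.65 ± 0.059, adjusted p = 4.4e-15), as did UPK3B, a uroplakin (0.19 in H226 and -0.50 in ACHN, difference 0.69 ± 0.15, adjusted p = 5.4e-04). The T-box factor TBX18 rose in H226 (0.39 in H226 and -0.033 in ACHN, difference 0.42 ± 0.086, adjusted p = 1.0e-04).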
